A study of Bos taurus with 16 samples.

Results

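MATN1 (ENSBTAG00000003479) and MATN2 (ENSBTAG00000017165), which encode matrilin-1 and matrilin-2, were the 2 genes described here, of 19454 bovine genes in the count table. They were taken by their identifiers, with no threshold on their values, and both were measured in all 16 RNA-Seq libraries. Superficial zone articular chondrocytes were isolated from the knees of 4 calves 1 to 2 weeks old and infected with lentivirus encoding a scrambled control shRNA (shScramble) or a single shRNA against the transcription factor Creb5 (shCreb5). Infected cells were selected with 0.8 µg/ml puromycin for 5 days. They were then replated on low attachment plates for 48 h in serum-containing medium with TGFα at 100 ng/ml as the sole added factor (condition A) or together with TGFβ2 at 20 ng/ml (condition AB). The groups were therefore shScramble A, shCreb5 A, shScramble AB and shCreb5 AB, with 1 library per calf in each. All of them shared the virus, the puromycin and TGFα, and no library came from cells without TGFα. The A and AB cells of one calf and shRNA came from the same infected population, and each library is a pool of selected cells rather than a clone.

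Matrilins are secreted adaptor proteins of the extracellular matrix. They are built from von Willebrand factor A domains and EGF-like repeats, they assemble into oligomers through a carboxy-terminal coiled coil, and they bridge collagen fibrils, proteoglycans and other matrix proteins. Matrilin-1 is a classical product of epiphyseal and growth plate cartilage and is largely missing from articular cartilage. Matrilin-2 is made more widely, in fibrous connective tissue, around muscle and nerve, and in basement membrane zones. CREB5 is a transcription factor of superficial zone chondrocytes, and TGFβ2 acts through SMAD proteins.

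The 16 libraries held between 14710867 and 21853634 counts, with the fewest in shScramble AB of calf 4, and differed from each other within groups by far more than counting error. Of 2 superficial zone markers, PRG4 (lubricin) was present at 2464 to 58499 CPM (counts scaled to a common library size) and CREB5 at 31.1 to 124 CPM, and COL11A1 and HAPLN1, the 2 of 8 general chondrocyte markers with an identifier, lay between 898 and 14992 CPM. Markers of other cell types had an identifier for 2 of 6 in fibroblasts, 2 of 6 in leukocytes, 2 of 5 in endothelium and 1 of 4 in osteoblasts, and for none in muscle and fat. THY1 and FAP, the fibroblast markers, reached 533 and 833 CPM, whereas CD68, CD14, VWF, TEK and DMP1 lay between 1.13 and 71.7 CPM, and none was at 0. CREB5, the target of the shRNA, was below its shScramble partner in 8 of 8 pairs of libraries. These pairs come from 4 calves, and the share of all genes lower in every pair was not counted. The log2 fold change of CREB5 was -0.54 (standard error 0.08) in condition A and -0.96 (standard error 0.10) in condition AB. Neither passed by edgeR (adjusted p = 0.337 and 0.124), which called 0% of genes in either condition. DESeq2 gave adjusted p of 6.79e-05 and 1.07e-08, and called 0.665% and 0.388% of the genes it tested. CREB5 was also lower with TGFβ2, with log2 fold changes of -0.40 in shScramble and -0.82 in shCreb5 cells (adjusted p = 0.0195 and 0.0036, edgeR). There 9.15% and 14.5% of genes were called lower. Every adjusted p given here is a Benjamini-Hochberg value of the edgeR quasi-likelihood test over all genes tested, unless DESeq2 is named.

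TGFβ2 raised MATN2 by more than an order of magnitude in every calf and with either shRNA. In shScramble A cells, MATN2 had 5.14, 15.8, 17.1 and 23.1 CPM in calves 1 to 4, from 128, 329, 327 and 512 counts. In shScramble AB cells it had 183, 196, 205 and 251 CPM in the same calves, from 3880, 3766, 3697 and 3745 counts. The groups did not overlap, and the libraries with TGFβ2 lay close together whereas those without it were spread, with calf 1 well below the others. This was a 15.0-fold rise with a 95% confidence interval from 9.69-fold to 23.3-fold, or 3.91 ± 0.28 (standard error) on the log2 scale (adjusted p = 0.000157). In that comparison 10.7% of the 12879 genes tested were called higher, and in 4.99% the AB libraries all lay above the A libraries. MATN2 had the 15th largest rise. In bulk RNA, more cells that express a gene and more RNA per cell cannot be told apart.

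In shCreb5 A cells MATN2 had 5.93, 10.2, 5.08 and 7.72 CPM in calves 1 to 4, from 129, 217, 94 and 171 counts. In shCreb5 AB cells it had 157, 159, 131 and 252 CPM, from 2786, 2944, 1868 and 4100 counts. Again every library with TGFβ2 lay above every library without it. The rise was 24.0-fold with a confidence interval from 17.9-fold to 32.2-fold, or 4.59 ± 0.18 on the log2 scale (adjusted p = 4.31e-05). Here 15.9% of 12769 genes were called higher and 6.29% had AB libraries entirely above the A libraries. MATN2 had the 4th largest rise and the 3rd smallest p.

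Within single calves the rise of MATN2 was 35.7-fold, 12.4-fold, 12-fold and 10.9-fold in shScramble cells and 26.5-fold, 15.6-fold, 25.7-fold and 32.6-fold in shCreb5 cells. Calf 1 had the largest rise of the shScramble cells, from the lowest starting level, and calf 2 the smallest of the shCreb5 cells. The response was larger with shCreb5 in 3 of 4 calves. Tested directly as an interaction in all 16 libraries, the difference was 0.72 on the log2 scale, with a 95% confidence interval from -0.10 to 1.54 (adjusted p = 0.961), so a larger response with shCreb5 was not shown. No gene of 13372 passed that test, so 0% were called by edgeR, 571 or 4.27% had an unadjusted p under 0.05, and DESeq2 called 15 or 0.0771% of those it tested. THY1 and FAP also rose with TGFβ2, THY1 by 1.43 and 1.08 and FAP by 1.18 and 1.36 on the log2 scale in shScramble and shCreb5 cells, and their summed level went from 107 to 388 CPM in shScramble A libraries to 343 to 565 CPM in shScramble AB libraries. With shCreb5 it went from 97.1 to 598 CPM in condition A to 345 to 1366 CPM in condition AB. Of the chondrocyte markers, PRG4 rose by 1.94 and 1.91 in shScramble and shCreb5 cells (adjusted p = 0.00113 and 0.00126). COL11A1 changed by 0.47 and 1.11 and HAPLN1 by -0.09 and 0.45, of which only the 1.11 was called. With shCreb5, THY1 changed by 1.08 and 0.72 and FAP by 0.20 and 0.39 in conditions A and AB, none of them called. Whether THY1 and FAP marked fibroblasts in these cultures was not tested, nor was a part of fibroblasts in the rise of MATN2.

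**Figure D1:**
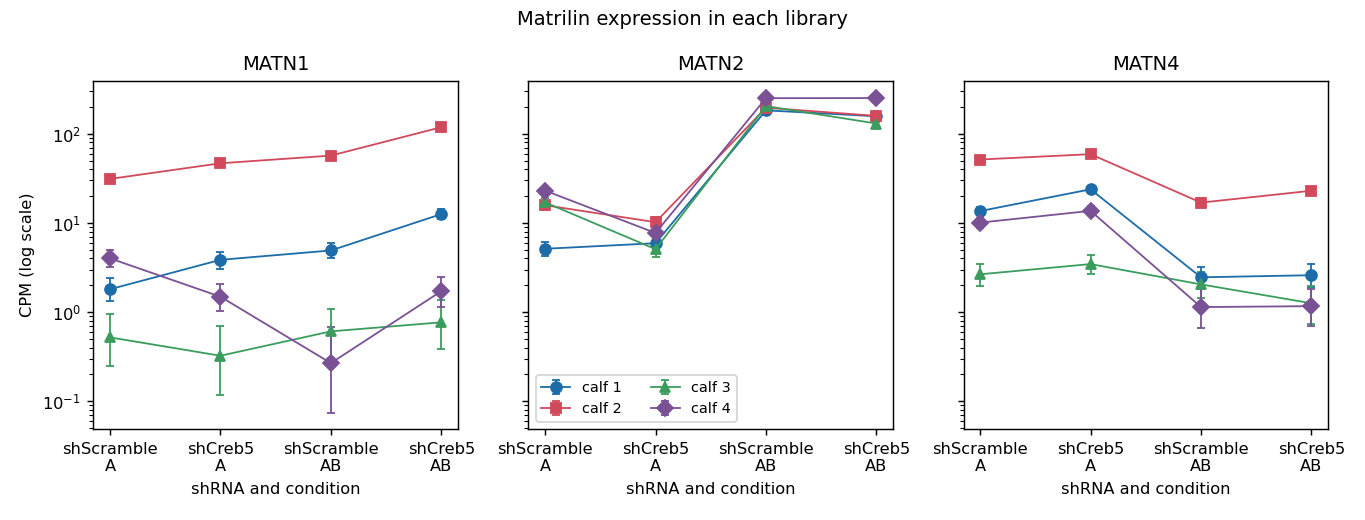
Expression of MATN1, MATN2 and MATN4 in each library as CPM on a log axis, for the 4 combinations of shRNA and condition. Points of one calf are joined to ease tracing, and error bars are 95% Poisson intervals of the count. MATN2 lies at 5.08 to 23.1 CPM in the 8 libraries of condition A and at 131 to 252 CPM in the 8 of condition AB, whereas MATN1 is ordered mainly by calf.

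With shCreb5, MATN2 was lower in 3 of 4 calves in each condition, and neither difference passed the threshold. In condition A calf 1 was the exception, and the groups overlapped. Its level was 1.94-fold lower with a confidence interval from 1.16-fold to 3.25-fold, a log2 fold change of -0.96 ± 0.31 (unadjusted p = 0.0189, adjusted p = 0.525, edgeR). No gene passed an adjusted p of 0.05 in condition A by edgeR, 0% of 12922, and 8.85% had an unadjusted p under 0.05. DESeq2, which called 81 genes or 0.665% of those it tested, gave MATN2 an adjusted p of 0.207.

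In condition AB calf 4 was the exception, with libraries at 251 and 252 CPM. The estimate was -0.29 ± 0.12 on the log2 scale (adjusted p = 0.587, edgeR), with a confidence interval from -0.58 to 0.001. By edgeR 0% of 12664 genes were called in condition AB, where 8.51% had an unadjusted p under 0.05. In order of mean log2 CPM, MATN2 went from shCreb5 A through shScramble A and shCreb5 AB to shScramble AB. Only the step between shScramble A and shCreb5 AB was larger than the spread, with a log2 difference of 3.58 (adjusted p = 7.39e-06 in the fit of all 16 libraries, where 16.3% of genes were called higher). The steps on either side of it are the shRNA comparisons above, and neither passed.

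MATN1 differed between calves far more than between treatments. Calf 2 had 31.2, 46.8, 57.0 and 119 CPM in shScramble A, shCreb5 A, shScramble AB and shCreb5 AB, from 649, 994, 1094 and 2200 counts. Calf 1 had 1.81, 3.86, 4.92 and 12.6 CPM in the same groups, from 45, 84, 104 and 223 counts. Both calves thus had the same order of groups, at very different levels.

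Calf 4 had 4.01, 1.49, 0.268 and 1.72 CPM of MATN1 in that order of groups, from 89, 33, 4 and 28 counts. Calf 3 had 0.522, 0.324, 0.609 and 0.769 CPM, from 10, 6, 11 and 11 counts. Calf 3 was thus near the limit of what these libraries resolve, and calf 4 moved in an order of its own. Calf 2 alone supplied 4937 of the 5585 MATN1 counts, or 88.4%, and 83.1% to 90.8% of each group's summed CPM. A mean CPM of a group, such as 33.5 ± 57.1 (SD, n = 4 calves) in shCreb5 AB, therefore mostly gives calf 2. For MATN2 calf 2 supplied 25.3% of the counts.

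The mean log2 CPM of MATN1 over a calf's 4 libraries spanned 6.46 between the highest and the lowest calf, the 13th largest span of 13372 genes, where the median gene spanned 0.60. Between the group means MATN1 spanned 1.25, against 0.41 for the median gene. MATN2 showed the opposite balance, with a span of 0.91 between calves and of 4.87 between groups, the 8th largest. This describes 4 animals, in which the calf, its dissection and its infection cannot be told apart.

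**Figure D2:**
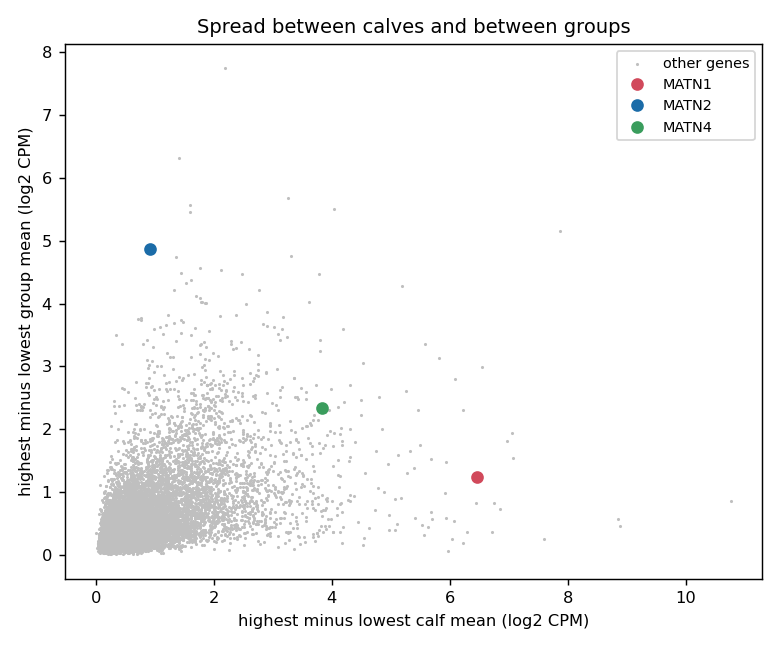
Each point is one of 13372 genes, with the span of its mean log2 CPM between calves on the x axis and between the 4 groups on the y axis. MATN1 sits far to the right (6.46 and 1.25), MATN2 high on the left (0.91 and 4.87) and MATN4 between them (3.84 and 2.33).

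Calf 2 also stood apart in COL11A1 and HAPLN1, the 2 of 8 chondrocyte markers with an identifier. How many of all genes had calf 2 highest or lowest was not counted. COL11A1, a chain of cartilage collagen fibrils, had a mean of 12836 CPM in calf 2 and of 4479, 1799 and 3334 CPM in calves 1, 3 and 4. HAPLN1, the link protein that ties aggrecan to hyaluronan, had 7341 CPM in calf 2 and 1978, 1694 and 2071 CPM in the others. PRG4, the lubricin of the joint surface, was lowest in calf 2, with a mean of 6756 CPM against 26109, 37407 and 24329 CPM. THY1 was also lowest there, at 39.5 CPM against 172, 153 and 254 CPM. So were FAP, at 184 CPM against 276, 319 and 429 CPM, and CREB5, at 52.9 CPM against 84.0, 57.3 and 72.7 CPM. The CREB5 libraries of calf 2, at 36.2 to 71.4 CPM, overlapped those of calf 3, at 31.1 to 77.8 CPM. CD14 was highest in calf 2, at 23.6 CPM against 16.7, 18.0 and 16.1 CPM. DMP1 was lowest there, at 10.3 CPM against 12.9, 10.7 and 14.1 CPM. CD68, VWF and TEK were neither highest nor lowest there. Whether the slices taken from the calves differed in depth or in cells was not tested.

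**Figure D3:**
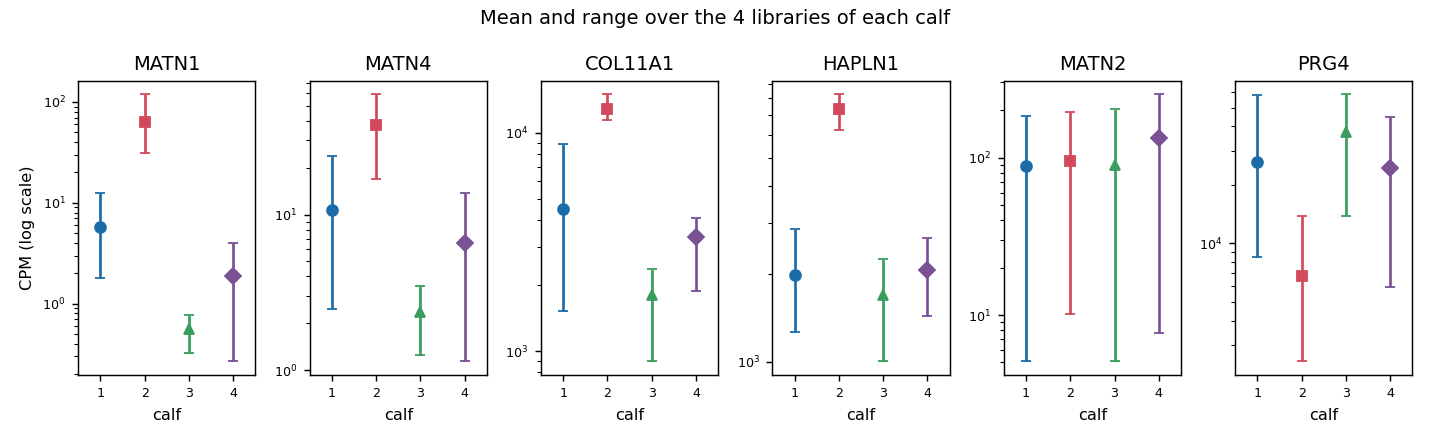
Mean CPM over the 4 libraries of each calf on log axes, with bars from the lowest to the highest library, for MATN1, MATN4, COL11A1, HAPLN1, MATN2 and PRG4. Calf 2 is highest for MATN1 (63.4 CPM), MATN4, COL11A1 and HAPLN1 and lowest for PRG4, and MATN2 has nearly the same mean in calves 1 to 3 (88.0, 95.3 and 89.4 CPM).

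In condition AB, MATN1 was higher with shCreb5 in 4 of 4 calves, which 9.28% of the 12664 genes tested were. Within calves 1 to 4 it was higher by 2.56-fold, 2.08-fold, 1.26-fold and 6.42-fold. Counting error alone left the value of calf 3 between 0.496-fold and 3.21-fold and that of calf 4, with 28 against 4 counts, between 2.25-fold and 25.2-fold, whereas in calf 2 it lay between 1.94-fold and 2.24-fold. The levels of the groups overlapped, since the calves differed more than the shRNAs.

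Over the 4 calves MATN1 was 2.34-fold higher with a confidence interval from 1.64-fold to 3.34-fold, a log2 fold change of 1.23 ± 0.22 and the 18th largest rise. Its unadjusted p was 0.00071 and its adjusted p 0.333 by edgeR, and so it was not called. DESeq2, the test of the study's methods, gave an adjusted p of 0.000438, and called 54 genes, 0.388% of those it tested and 0.101% as higher. The call thus depended on the test, while the estimate did not. Left out in turn, the calves moved the log2 fold change only between 1.11 and 1.39.

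In condition A the calves did not move together. MATN1 was higher with shCreb5 in calves 1 and 2, by 2.14-fold and 1.5-fold, and lower in calves 3 and 4, by 1.61-fold and 2.69-fold. The estimate was 0.12 on the log2 scale with a confidence interval from -0.82 to 1.06 (adjusted p = 0.939), and its sign was not stable, at -0.004 with DESeq2 and 0.65 without calf 4. Subtracting the shCreb5 effect on MATN1 in condition A from that in condition AB gave a value above 0 for every one of the 4 calves, as for 9.82% of all genes. The difference was 1.22 on the log2 scale (standard error 0.75), with a confidence interval from -0.40 to 2.85 (adjusted p = 0.961), and 0.47 without calf 4. A difference between the conditions was therefore not shown.

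**Figure D4:**
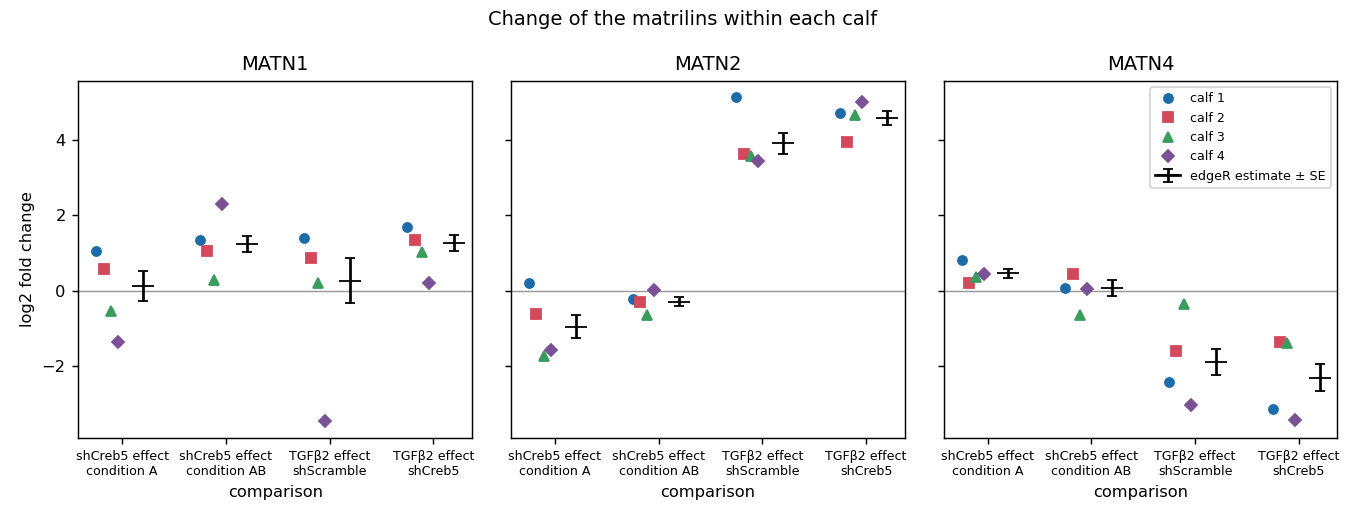
Log2 fold change within each calf (coloured points) and edgeR's estimate ± standard error (black), for the effect of shCreb5 in conditions A and AB and the effect of TGFβ2 in shScramble and shCreb5 cells. The MATN2 points for TGFβ2 all lie above 3, those of MATN4 all lie below 0, and MATN1 has 1 point far from the rest, calf 4 in shScramble cells at -3.47.

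TGFβ2 raised MATN1 in shCreb5 cells. It was higher in 4 of 4 calves, as were 25.2% of the genes tested, by 3.26-fold, 2.54-fold, 2.37-fold and 1.16-fold in calves 1 to 4, with counts from 84 to 223, 994 to 2200, 6 to 11 and 33 to 28 in libraries of unequal size. The counting intervals of calves 3 and 4 included no change. The rise was 2.40-fold with a confidence interval from 1.70-fold to 3.37-fold, or 1.26 ± 0.21 on the log2 scale (adjusted p = 0.00465), and it passed with each calf left out. In that comparison 15.9% of 12769 genes were called higher, and this rise was the 405th largest. It did not pass in a fit of all 16 libraries (adjusted p = 0.083) or without the calf as a block (adjusted p = 0.727).

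In shScramble cells MATN1 was higher with TGFβ2 in calves 1 to 3, by 2.72-fold, 1.83-fold and 1.17-fold, and was 15.0-fold lower in calf 4, from 89 to 4 counts. Calf 4 decided the result. With it the estimate was 0.26 ± 0.59 on the log2 scale (adjusted p = 0.802), and without it 1.0 (adjusted p = 0.0229). The mean of the log2 changes within the 4 calves was -0.26, opposite in sign to edgeR's estimate from all of them. The count of 4 came from the library with the fewest counts, 14710867 against 19980813 in shScramble A of calf 4. On the CPM scale, which allows for library size, MATN1 was at 0.268 in that library against 4.01 in shScramble A. The shCreb5 libraries of calf 4 had 1.49 CPM in condition A and 1.72 CPM in condition AB. MATN2 had 3745 counts in the library with 4 counts of MATN1, the highest level of its group. The cause was not tested. In shScramble cells, counting error alone left the change of calf 3, from 10 to 11 counts, between 0.45-fold and 3.07-fold. For calf 4 it left the change between 0.0178-fold and 0.177-fold. The test of the difference between the shRNAs is the one given above, which did not pass.

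By mean log2 CPM, MATN1 was ordered shScramble AB, shCreb5 A, shScramble A and shCreb5 AB. No neighbours in this order differed beyond their spread, since shCreb5 A against shScramble AB gave an edgeR log2 difference of -0.14 (adjusted p = 0.887), the opposite sign to their means, where 22.9% of genes were called, and shCreb5 AB against shScramble A one of 1.18 (adjusted p = 0.119). Without calf 4 the latter was 2.10 (adjusted p = 0.000737). By mean CPM, which calf 2 sets, shScramble A came first, followed by shCreb5 A, shScramble AB and shCreb5 AB.

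Of the other matrilins, MATN4 (ENSBTAG00000011279), another cartilage and connective tissue matrilin, had an identifier, and MATN3 was not analysed here. MATN4 fell with TGFβ2 where MATN2 rose. In shScramble A cells it had 13.6, 51.5, 2.66 and 10.1 CPM in calves 1 to 4, and in shScramble AB cells 2.46, 16.9, 2.05 and 1.14 CPM. It was lower with TGFβ2 in 8 of 8 pairs, whereas 20.1% and 24.1% of genes were lower in all 4 calves of shScramble and shCreb5 cells, with log2 fold changes of -1.89 (standard error 0.35, adjusted p = 0.00757) in shScramble and -2.31 (standard error 0.36, adjusted p = 0.00354) in shCreb5 cells, where 9.15% and 14.5% of all genes were called lower. The effect of shCreb5 on MATN4 was 0.46 on the log2 scale in condition A (adjusted p = 0.519), above 0 in 4 of 4 calves as for 9.75% of genes, and 0.06 in condition AB (adjusted p = 0.926).

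In its spread between calves MATN4 resembled MATN1. Its calves spanned 3.84 in mean log2 CPM, with calf 2 highest, then calf 1, calf 4 and calf 3, the same order as for MATN1, which 10.2% of all genes had. With TGFβ2, in the same libraries, MATN2 thus rose and MATN4 fell with either shRNA. MATN1 was called higher in shCreb5 cells, and a difference between the shRNAs was not shown.

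**Figure D5:**
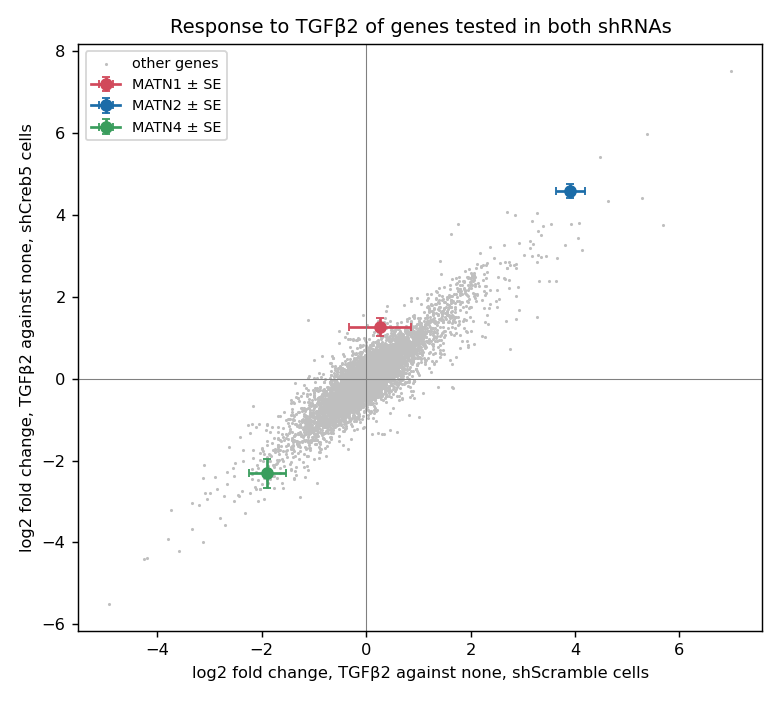
Log2 fold change with TGFβ2 of every gene tested in both shRNAs (grey), with shScramble cells on the x axis and shCreb5 cells on the y axis, and the matrilins with standard errors in both directions. MATN2 (3.91 and 4.59) lies among the largest rises and MATN4 (-1.89 and -2.31) among the falls. MATN1 (0.26 and 1.26) lies near the centre of the x axis and above the centre of the y axis.

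Of 24 genes listed as matrilin binding partners or members of the cartilage fibril network, 7 had an identifier, and these identifiers favour genes that responded to the shRNA. With TGFβ2, 1 of the 7 was called higher and none lower in shScramble cells, and 2 were called higher and 2 lower in shCreb5 cells. Over all genes 10.7% were called higher and 9.15% lower in shScramble cells, and 15.9% and 14.5% in shCreb5 cells. The 7 genes had medians of 0.30 and 0.29 on the log2 scale against -0.005 and -0.006 over all genes. CHAD, chondroadherin, a leucine-rich matrix protein of cartilage, had the largest rise, by 2.38 and 2.16 (adjusted p = 0.000652 and 0.000415). COL11A1 rose by 1.11 in shCreb5 cells (adjusted p = 0.0101), and NID1, the basement membrane protein nidogen, fell by 0.42 there (adjusted p = 0.0359), as did LAMC1, a laminin chain, by 0.34 (adjusted p = 0.0158). With shCreb5, where edgeR called 0% of all genes in either condition, none of the 7 could stand apart by its call.

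Of 17 TGFβ target genes listed, 8 had an identifier, and 6 of them were called higher and none lower with TGFβ2 in each shRNA, beside 10.7% and 15.9% of all genes called higher. Their medians were 1.22 and 1.15, and as above their identifiers favour genes that responded to the shRNA. TGFBI, a secreted matrix protein named for its induction by TGFβ, rose most in shScramble cells, by 3.93 (adjusted p = 0.000367), and POSTN, periostin, most in shCreb5 cells, by 4.07 (adjusted p = 4.31e-05). The rise of MATN2, at 3.91 and 4.59, lay beside the largest of them. Of 15 superficial zone and interzone genes listed, 8 had an identifier, and 4 were called higher and 4 lower in shScramble cells (10.7% and 9.15% of all genes) and 3 higher and 4 lower in shCreb5 cells (15.9% and 14.5% of all genes). WIF1, a secreted Wnt inhibitor, rose most, by 2.19 and 3.08 (adjusted p = 0.000352 and 0.0027), and GDF10, a TGFβ superfamily ligand, fell most, with -1.76 and -2.17 (adjusted p = 0.000654 and 0.000884). None of 16 epiphyseal and growth plate genes listed had an identifier here.

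Among the 3117 genes with a symbol, those with the profile most like MATN2 over the 16 libraries, after each calf's mean was subtracted, were MYH15, a myosin heavy chain, with r = 0.985, COL5A1, a chain of fibrillar collagen V, with r = 0.979, and CDCA3, a cell division gene, with r = 0.977. All 3 were called higher with TGFβ2 in both shRNAs, with log2 fold changes of 3.28 and 4.05 for MYH15, 1.56 and 1.63 for COL5A1, and 2.02 and 2.28 for CDCA3. They stood 3rd, 9th and 11th among all 13371 genes. The points share calves, infections and the 2 conditions, so that any gene with a steady response to TGFβ2 scores high.

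For MATN1, r was lower among the genes with a symbol. LGALS3, the lectin galectin-3, with r = 0.741, CWF19L1 with r = 0.733, and RECK, a membrane-anchored inhibitor of metalloproteinases, with r = 0.724 were the nearest of these, 13th, 16th and 21st among all 13371 genes. None of the 3 was called with TGFβ2 in shScramble cells, and CWF19L1 rose by 0.32 on the log2 scale in shCreb5 cells (adjusted p = 0.032). With the calf means left in, the genes with a symbol most like MATN1 were SCIN, an actin-severing protein, with r = 0.961, EDIL3, a secreted integrin ligand, with r = 0.944, and MIA, a secreted protein of cartilage, with r = 0.937, which stood 2nd, 7th and 10th among all genes. These values hold the differences between calves as well as those between groups.

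In RefSeq's gene order on the bovine assembly ARS-UCD2.0, which is not the build of the counts, MATN1 lies next to LAPTM5, which encodes a lysosomal membrane protein, and PTPRU, a receptor phosphatase. LAPTM5 rose with TGFβ2 by 1.13 and 1.32 on the log2 scale in shScramble and shCreb5 cells (adjusted p = 0.00158 and 0.00115), and PTPRU by 0.69 and 0.49 (adjusted p = 0.0103 and 0.00736). LAPTM4B, next to MATN2 and related to LAPTM5, rose by 0.68 and 0.73 (adjusted p = 0.00221 and 0.00275) on the log2 scale, beside 3.91 and 4.59 for MATN2. MTDH, the gene beyond LAPTM4B, was not called, at -0.06 and 0.34 (adjusted p = 0.777 and 0.059). Over all genes 10.7% and 15.9% were called higher with TGFβ2 in shScramble and shCreb5 cells, and 0% were called by edgeR with shCreb5, these neighbours included. RPL30, on the other side of MATN2, and SDC3, MECR and ERICH5, the next genes out, had no identifier. As above, the identifiers favour genes that responded to the shRNA.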

How the data were processed

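RNA of 16 libraries was sequenced single-end. The authors quantified transcripts with Salmon in bcbio-nextgen against bovine genome UMD 3.1, took gene totals with tximport, and deposited them as estimated counts, whole numbers that are not scaled for library size. Salmon and UMD 3.1 are also named in the submitters' processing notes. Counts were tested in R 4.3.3 with edgeR 4.0.16 (filterByExpr, TMM, quasi-likelihood test, Benjamini-Hochberg over all genes tested, called at an adjusted p under 0.05), with the calf as a block as in the study's model, in the 8 libraries of each comparison, and in all 16 for the interaction and the order of levels. The count table's headers and the sample titles number the calves. Deviations from group means correlated between libraries of one calf (r from 0.132 to 0.837 over 24 pairs, median 0.67). Between calves the median was -0.234, but subtracting the group mean by itself pulls that value below 0. CPM used the TMM factors of all 16 libraries, and log2 CPM a prior count of 2. Standard errors came from the F statistic, and 95% intervals of single libraries are Poisson or exact binomial and cover counting error only. DESeq2 1.42.0, RLE factors, no filter, no block, other fits and each calf left out were alternatives. The tests were tested on simulated data.

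The members and lists were chosen with earlier results of these data known. Named genes were the members, MATN4, CREB5, the 3 symbols most like each member, the largest called rise and fall of each list, and, chosen after their values were seen, COL11A1, HAPLN1, PRG4, THY1, FAP, LAMC1, the likeness without centring and the neighbours. Symbols of 3144 genes came from the identifier columns of the study's gene tables, of which only the top lines were used. These tables' fold changes and p-values were not used. No gene lengths or sequences were used, so levels of different genes, such as the cell type markers, are given without correction for gene length. Sequencing kits and RNA integrity are not assigned to libraries in the sources used here.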

Additional observations from a re-analysis of the deposited data

Results flagged for a closer look

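In 18 sets of 4 calves, the log2 CPM of MATN1 or MATN2 in a group or a log2 change over calves, 2 sets had 1 calf well away from its 3 companions (chance alone would give 0.9 such sets). The first was the difference of the shCreb5 effect on MATN1 between conditions AB and A, which was 3.67 on the log2 scale in calf 4 and 0.28, 0.48 and 0.84 in the other calves. It is the 2.30 of condition AB, from 28 against 4 counts, minus the -1.37 of condition A, from 33 against 89 counts. The second was the change of MATN2 with TGFβ2 in shScramble cells, which was 5.13 in calf 1 and 3.44 to 3.62 in the others. It goes with the low MATN2 level of that calf's shScramble A library, 5.14 CPM against 15.8 to 23.1 CPM.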

How the results depend on the processing

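The rise of MATN2 with TGFβ2 was called under all 10 alternatives in each shRNA, at 3.55 to 4.37 on the log2 scale in shScramble and 4.32 to 4.82 in shCreb5 cells, and its shRNA effect kept its sign and was called in none. Of 136 alternatives for single genes, 120 kept direction and call, and the rest concern MATN1. For its shRNA effect in condition A, DESeq2 gave -0.0040 and the fit of all 16 libraries -0.091, and single calves left out gave -0.25 to 0.65. In condition AB, DESeq2 gave 1.25 (adjusted p = 0.000438) and calves 1 and 2 alone, an alternative chosen after seeing the data, 1.16 (adjusted p = 0.00664). With TGFβ2 in shScramble cells, DESeq2 gave -0.034, calves 1 and 2 alone 1.09 (adjusted p = 0.0395), and single calves left out -0.32 to 1.0, called without calf 4. For shCreb5 AB against shScramble A, MATN1 was at 2.26 in calves 1 and 2 alone (adjusted p = 0.00253) and at 0.56 to 2.10 with single calves left out. For shCreb5 A against shScramble AB, single calves left out gave -0.37 to 0.040. In shCreb5 cells, TGFβ2 moved MATN1 by 1.27 in the fit of all 16 libraries (adjusted p = 0.083). The causes were not tested.

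The calves were paired as a replicate block. With no replicate block, MATN1 in shCreb5 cells was at 1.34 (adjusted p = 0.727), and TGFβ2 changed 202 and 194 genes in shScramble and shCreb5 cells, against 2556 and 3884 with the block. It changed no other call on MATN1 or MATN2.

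In numbers of genes called, calves 1 and 2 alone gave 547 and 1110 with TGFβ2 and 80 for shCreb5 in condition AB, and single calves left out gave 1366 to 1926 and 1962 to 3829 with TGFβ2, and for shCreb5 0 to 1 (condition A) and 0 to 2 (condition AB). With shCreb5, DESeq2 called 81 and 54 genes in conditions A and AB and 15 for their difference, and in condition AB 17 genes were called with no filter and 6 in the fit of all 16 libraries. The r of LGALS3 with MATN1 was 0.579 without centring on calves and 0.626 to 0.782 with single calves left out, and that of MYH15 with MATN2 0.937 and 0.982 to 0.992. With 4 to 11 counts of MATN1 in some libraries of calves 3 and 4, counting error limits their folds.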
